A study of Homo sapiens with 4 samples.

Results

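A set of 10 genes of the ADAMTS and ADAM metalloprotease families was followed in Daoy cells, an established human medulloblastoma line, after knockdown of PELP1, a coregulator of nuclear receptors. They are ADAMTS1, ADAMTS4, ADAMTS5, ADAMTS6, ADAMTS7, ADAMTS9, ADAMTS12, ADAM8, ADAM12 and ADAM19. They were taken by symbol from the 23228 gene rows of the count tables, and all 10 were found and tested. The groups were cells carrying a lentiviral control shRNA (n = 2 libraries) and cells carrying a lentiviral PELP1 shRNA (n = 2 libraries), each stably expressed and grown in DMEM with serum. The labels name neither an shRNA sequence nor whether a line was a clone or a pool, so the effect of the knockdown and of the individual cell line cannot be told apart. They also do not say whether the libraries of a group came from separate cultures, so the spread behind every p-value is the one between these 2 libraries per group and may be purely technical.

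Both families are zinc-dependent proteases made as inactive precursors. In many members, though not all, the prodomain is removed by furin-like convertases. ADAMTS proteins are secreted, carry thrombospondin type 1 repeats that hold them in the matrix, and cut proteoglycans, procollagens and microfibril proteins. Most ADAM proteins are anchored in the membrane, where the catalytic ones shed growth factors, receptors and adhesion molecules. Brain matrix is rich in hyaluronan-binding proteoglycans such as versican and brevican, which are known substrates of the ADAMTS proteoglycanases.

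In the active proteases of both families the catalytic domain holds a zinc-binding site of the form HEXXHXXGXXH, with variants at the glycine. The coding bases of this site are shown for the genes that fell most (ADAMTS1 and ADAMTS5), the gene that rose most (ADAMTS12), the gene closest to ADAMTS1 over the site (ADAMTS9), and the most abundant gene after knockdown (ADAM19). Sequences are reference bases of the canonical GENCODE transcripts on hg19, all from the minus strand, read 5′ to 3′. Capitals mark the codons of the 3 histidines, of the glutamate and of the residue that is glycine in the motif.
ADAMTS1: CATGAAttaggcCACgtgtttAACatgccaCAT
ADAMTS9: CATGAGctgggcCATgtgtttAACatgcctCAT
ADAMTS5: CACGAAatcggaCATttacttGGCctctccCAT
ADAMTS12: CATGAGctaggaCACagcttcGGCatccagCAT
ADAM19: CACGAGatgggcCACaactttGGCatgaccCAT
The bases lie at chr21:28213462-28213484 and chr21:28214177-28214186 in exons 4 and 3 of ADAMTS1, and at chr21:28315844-28315866 and chr21:28327058-28327067 in exons 3 and 2 of ADAMTS5. In ADAMTS12 they lie at chr5:33649787-33649802 and chr5:33658289-33658305 in exons 8 and 7. In ADAMTS9 they lie at chr3:64636824-64636839 and chr3:64640029-64640045 in exons 9 and 8. In ADAM19 they lie within exon 11, at chr5:156932742-156932774. An intron splits the site in all 7 ADAMTS genes, while in all 3 ADAM genes it lies within exon 11. Each of the 10 proteins held 1 match once asparagine or serine was allowed in place of the glycine. ADAMTS1, ADAMTS4 and ADAMTS9 had asparagine there and the other 7 had glycine. ADAMTS1 and ADAMTS9 shared 28 of the 33 bases, and ADAMTS1 and ADAMTS5 shared 19. The genes that fell most were therefore not the most alike over this site.

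Library sizes ranged from 24052542 to 29221640 counts in genes. PELP1 fell to 29.8% of the control level, from 168.2 and 185.2 to 55.6 and 49.7 CPM (CPM being counts scaled by library size and TMM factor). Of 14 markers of medulloblastoma and the cerebellar granule lineage, 8 had a mean of at least 1 CPM, with a summed level of 150.1 to 153 CPM in the control and 135.9 to 137 CPM in the PELP1 shRNA libraries. The granule neuron genes ATOH1, NEUROD1 and BARHL1 were at or near 0, at most 0.23 CPM in any library. ZIC1, ZIC2 and PAX6 of the same list stood at 15.2 to 24 CPM in every library. Within the sum GLI2 stood at 38.5 and 38.5 CPM in the control and 24.6 and 22.3 CPM in the knockdown libraries. PTCH1 was also lower, at 36.4 and 39.8 against 26.8 and 26.8 CPM. PAX6 went the other way, with 15.2 and 16.9 against 22.6 and 24 CPM. Mesenchymal genes were high in every library (7 of 7 markers above 1 CPM), with a summed level of 17454 to 18020 CPM in the control and 17856 to 18056 CPM in the PELP1 shRNA libraries. Within that sum FN1 rose from 7004 to 9996 CPM and COL1A1 from 3282 to 3724 CPM. VIM fell from 5546 to 3892 CPM, THY1 from 386.5 to 197.5 CPM and COL1A2 as given further on. PDGFRB and S100A4 were also lower. Summed epithelial markers stood at 568.3 to 583.1 CPM in the control and 833.8 to 856.1 CPM in the PELP1 shRNA libraries (3 of 6 above 1 CPM, mostly KRT18). Summed endothelial markers stood at 26.7 to 27.5 and 9.03 to 9.08 CPM (4 of 5 above 1 CPM). The lower sum came from TEK, which fell from 23.6 to 3.28 CPM, while PECAM1 rose from 0.37 to 1.83 CPM and KDR stood at 1.65 and 2.12 CPM. Leukocyte markers stood at 58.7 to 60.1 and 59.1 to 59.8 CPM (2 of 5 above 1 CPM, mostly CD68, with the pan-leukocyte gene PTPRC at most 0.30 CPM). The part of these shifts in the results below was not tested.

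ADAMTS1 fell 9.37-fold and ADAMTS5 11.4-fold with the PELP1 shRNA, ADAMTS6 fell to near 50% of control, and ADAMTS9, ADAM8 and ADAM19 fell by less. ADAMTS12 rose 2.66-fold and ADAMTS4 rose 1.52-fold from a low level. ADAMTS7 and ADAM12 did not pass the threshold. In edgeR's quasi-likelihood test, with a Benjamini-Hochberg adjusted p under 0.05 over 14972 genes, 8 of the 10 genes were called, against 58.1% of all genes tested. Of these, 6 were lower (29.5% of all genes) and 2 higher (28.6%), so a call alone does not set these genes apart from the transcriptome. Tested against a 1.5-fold change (edgeR glmTreat), 3 were lower, ADAMTS1, ADAMTS5 and ADAMTS6, where 4.90% of all genes passed. The pass of ADAMTS6 was lost with an assumed biological variation of 20% (adjusted p = 0.333). ADAMTS12 alone was higher, where 4.74% passed. The libraries of the groups did not overlap for any of the 10 genes, as for 77.7% of all genes. The median log2 fold change of the 10 genes was −0.58, against 0.0022 over all genes tested. The 10 genes were chosen with earlier results of these data known, so these comparisons with all genes describe them and test nothing. In bulk RNA, fewer cells that express a gene and less of its RNA per cell cannot be told apart.

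**Figure D1:**
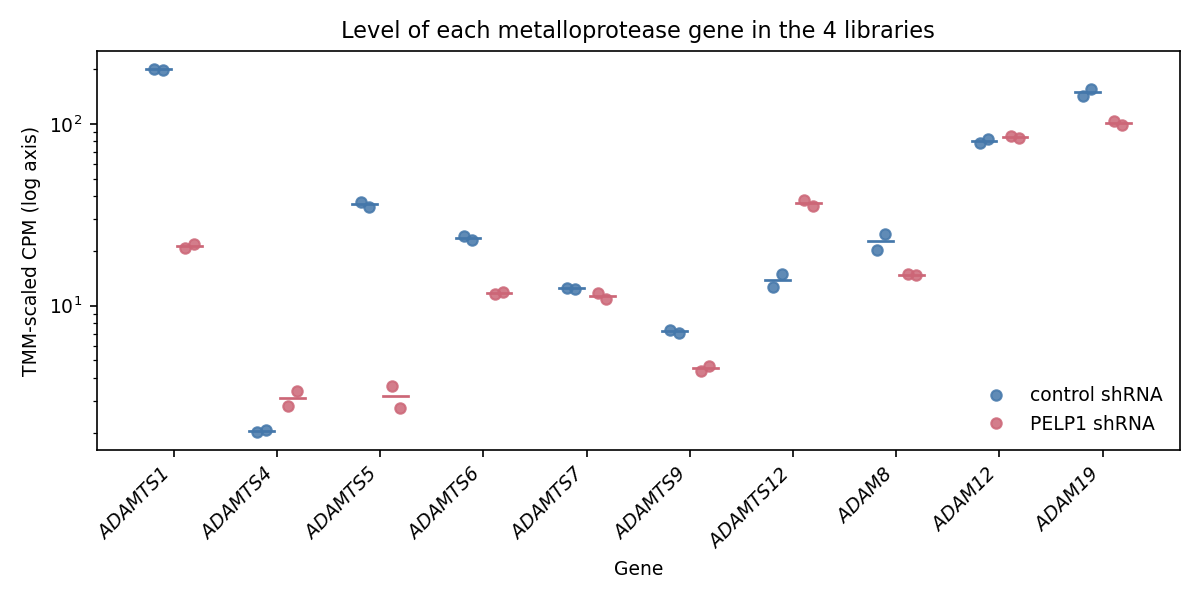
TMM-scaled CPM (log axis) of the 10 genes in each of the 2 control shRNA (blue) and 2 PELP1 shRNA (red) libraries, with lines at the group means. ADAMTS1 drops from near 199 to near 21.3 CPM and ADAMTS5 from 36.2 to 3.17 CPM, ADAMTS12 moves up, and the points for ADAM12 and ADAMTS7 lie close together.

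Among the proteoglycanases, ADAMTS1, which cuts versican and aggrecan and was first known as an inflammation-associated gene, had 4685 and 5096 counts with the control shRNA against 626 and 600 with the PELP1 shRNA. That is 200.4 and 198 CPM against 20.7 and 21.8 CPM. The knockdown libraries lay close together, and neither came near a control library. The mean fell from 199.2 ± 1.70 to 21.3 ± 0.72 CPM (SD, n = 2), 9.37-fold lower (log2 fold change −3.23 ± 0.05, SE; edgeR adjusted p = 4.51e-53). It ranked 48th from the lowest of the 14972 fold changes.

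ADAMTS5, the main aggrecan-degrading protease of cartilage in mice and a versican and brevican protease elsewhere, held 872 and 902 counts with the control shRNA and 109 and 75 with the PELP1 shRNA. Scaled, it stood at 37.3 and 35 CPM in the control and 3.61 and 2.72 CPM in the knockdown libraries. Both knockdown libraries were far below both control libraries. The fall was 11.4-fold (log2 fold change −3.50 ± 0.11, SE; edgeR adjusted p = 7.14e-38), rank 43 from the lowest. Leaving out each library in turn gave −3.73 to −3.32.

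ADAMTS1 and ADAMTS5 are neighbours on chromosome 21. On hg19, ADAMTS1 spans 28208074 to 28217728 and ADAMTS5 spans 28290241 to 28339407, both on the minus strand. The gap between them is 72512 bases and holds no other protein-coding gene. No other members lay this close: the next nearest, ADAM8 and ADAM12 on chromosome 10, are 6998877 bases apart with 27 protein-coding genes between them, and of these ADAM8 fell while ADAM12 was not called.

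ADAMTS9, a versican protease also needed at the base of primary cilia, stood at 7.36 and 7.11 CPM in the control and 4.37 and 4.68 CPM in the knockdown libraries. Each knockdown library was lower than each control library, and the mean fell to 62.6% of control (log2 fold change −0.68 ± 0.14, SE; edgeR adjusted p = 2.20e-05, and 0.201 with an assumed biological variation of 20%). In its exons, 174 bases overlap the antisense gene ADAMTS9-AS1, and strand was not stated for the counting. The row of the antisense gene ADAMTS9-AS2 held 6 and 0 counts in the control and 3 and 2 in the knockdown libraries, too few to compare.

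ADAMTS4, the other classical aggrecanase, moved the other way. It had 47 and 53 counts with the control shRNA and 85 and 93 with the PELP1 shRNA, or 2.01 and 2.06 against 2.82 and 3.37 CPM. The groups did not overlap, but the difference was the least secure of the called ones (log2 fold change 0.60 ± 0.20, SE; edgeR adjusted p = 0.00959). It was lost without PELP1 shRNA replicate 2 (adjusted p = 0.111), with DESeq2 (0.122) and with an assumed biological variation of 20% (0.364).

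Outside the proteoglycanases, ADAMTS6, which acts on fibrillin microfibrils and the heparan sulfate proteoglycan syndecan-4, had 562 and 589 counts with the control and 348 and 327 with the PELP1 shRNA. This corresponds to 24 and 22.9 CPM against 11.5 and 11.9 CPM. The spread within each group was small beside the gap, and the mean fell to 49.8% of control (log2 fold change −1.004 ± 0.09, SE; edgeR adjusted p = 2.19e-15).

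ADAMTS7 and ADAMTS12 form a structural pair with a mucin-like domain, and both cut cartilage oligomeric matrix protein. ADAMTS12 had 297 and 385 counts with the control and 1157 and 969 with the PELP1 shRNA, which is 12.7 and 15 CPM against 38.3 and 35.1 CPM. The lowest knockdown library was above the highest control library by more than the range of either group. The rise had a log2 fold change of 1.41 ± 0.08 (SE; edgeR adjusted p = 2.16e-23), rank 350 from the highest of all genes. ADAMTS7 stood at 12.5 and 12.3 CPM in the control and 11.7 and 10.9 CPM in the knockdown libraries (−0.13 ± 0.10, SE; edgeR adjusted p = 0.259). Of the 50-base stretches of its canonical transcript, 22.2% also occur in 6 other annotated genes, among them ADAMTS7P1, ADAMTS7P3 and ADAMTS7P4, so its count is partial. ADAMTS12 passed the test and ADAMTS7 did not, and the difference between their changes was not tested.

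The bases before the start sites of ADAMTS12 (rose) and ADAMTS6 (fell) are shown because these are the called ADAMTS genes with an entry in the RefSeq promoter table (GRCh38.p14). There, 6 members had an entry, and ADAMTS1, ADAMTS4, ADAMTS5 and ADAMTS9 did not. The stretches are the 250 bases upstream of the start, chr5:33891991-33892240 and chr5:65481921-65482170, both minus strand, read 5′ to 3′. Capitals mark matches to the motifs searched on both strands.
ADAMTS12: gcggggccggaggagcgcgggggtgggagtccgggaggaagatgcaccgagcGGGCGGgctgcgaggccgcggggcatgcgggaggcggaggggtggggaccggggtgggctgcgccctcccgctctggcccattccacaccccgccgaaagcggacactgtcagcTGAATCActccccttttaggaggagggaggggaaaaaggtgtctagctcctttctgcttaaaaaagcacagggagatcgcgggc
ADAMTS6: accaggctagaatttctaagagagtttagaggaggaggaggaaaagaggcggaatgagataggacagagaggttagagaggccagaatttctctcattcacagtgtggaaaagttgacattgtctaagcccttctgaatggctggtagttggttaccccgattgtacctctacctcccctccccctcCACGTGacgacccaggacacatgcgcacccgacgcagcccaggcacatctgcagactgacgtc
ADAMTS12 held a match (TGAATCA) to the AP-1 pattern searched, TGANTCA, which allows any middle base. That pattern matched in 6.57% of 35116 promoters of the same length. ADAMTS12 also held an SP1 GC box (GGGCGG, 42.6%). ADAMTS6 held an E-box (CACGTG, 6.34%). The κB consensus, found in 9.96% of promoters and searched because the series title names the NF-κB pathway, matched in ADAM19 and in none of the other 5 members with an entry. The TATA box (TATAAA, 10.7%) and the cAMP response element (1.65%) matched in none of the 6. A match is a description of these letters, not a bound site.

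The 3 ADAM genes changed less than the leading ADAMTS genes. ADAM19, or meltrin beta, a sheddase of neuregulins, had 3345 and 3978 counts with the control and 3136 and 2712 with the PELP1 shRNA. Scaled to CPM these are 143.1 and 154.5 against 103.9 and 98.4. The groups stood apart, and the mean fell to 68% of control (log2 fold change −0.56 ± 0.05, SE; edgeR adjusted p = 7.07e-17, and 0.298 with an assumed biological variation of 20%). Only 62 of its exonic bases overlap a gene on the other strand, CYFIP2.

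ADAM8, an inflammation-linked sheddase first found in myeloid cells, stood at 20.3 and 24.8 CPM in the control and 15 and 14.7 CPM in the knockdown libraries. The control libraries lay further apart than the knockdown libraries, and the log2 fold change of −0.61 ± 0.09 (SE; edgeR adjusted p = 3.13e-08) ranged from −0.74 to −0.45 when each library was left out. Its call was lost with an assumed biological variation of 20% (adjusted p = 0.25). ADAM12, or meltrin alpha, which cuts heparin-binding EGF and insulin-like growth factor binding proteins, stood at 78.2 and 82.5 CPM in the control and 85.9 and 84.1 CPM in the knockdown libraries. Its log2 fold change of 0.08 ± 0.05 (SE; edgeR adjusted p = 0.165) missed the threshold. Scaling decided this call: upper-quartile factors gave 0.13 (adjusted p = 0.0179), and scaling by library size only gave 0.17 (adjusted p = 0.00218).

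Levels of different genes were compared per kilobase of the canonical transcript and per library size (RPKM). The gene models behind the counts were not given, so these lengths may differ from the stretches counted. In the control libraries the order was ADAMTS1 (38.4 ± 0.33), ADAM19 (23 ± 1.25), ADAM12 (10.1 ± 0.38), ADAM8 (6.91 ± 0.98), ADAMTS5 (3.76 ± 0.17), ADAMTS6 (3.21 ± 0.11), ADAMTS7 (2.25 ± 0.03), ADAMTS12 (1.61 ± 0.19), ADAMTS9 (0.95 ± 0.02) and ADAMTS4 (0.21 ± 0.0035) RPKM (SD, n = 2). No neighbours in this order overlapped within 1 SD. With the PELP1 shRNA the order opened with ADAM19 (15.6 ± 0.60), ADAM12 (10.7 ± 0.16) and ADAM8 (4.55 ± 0.07), and ADAMTS12 (4.29 ± 0.26) and ADAMTS1 (4.10 ± 0.14) followed. Below them came ADAMTS7 (2.05 ± 0.10), ADAMTS6 (1.60 ± 0.03) and ADAMTS9 (0.59 ± 0.03). ADAM8, ADAMTS12 and ADAMTS1 lay within 1 SD of their neighbours, as did ADAMTS5 (0.33 ± 0.07) and ADAMTS4 (0.32 ± 0.04) at the bottom. Per exon union length the order was the same except that ADAMTS12 passed ADAM8 in the knockdown libraries.

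**Figure D2:**
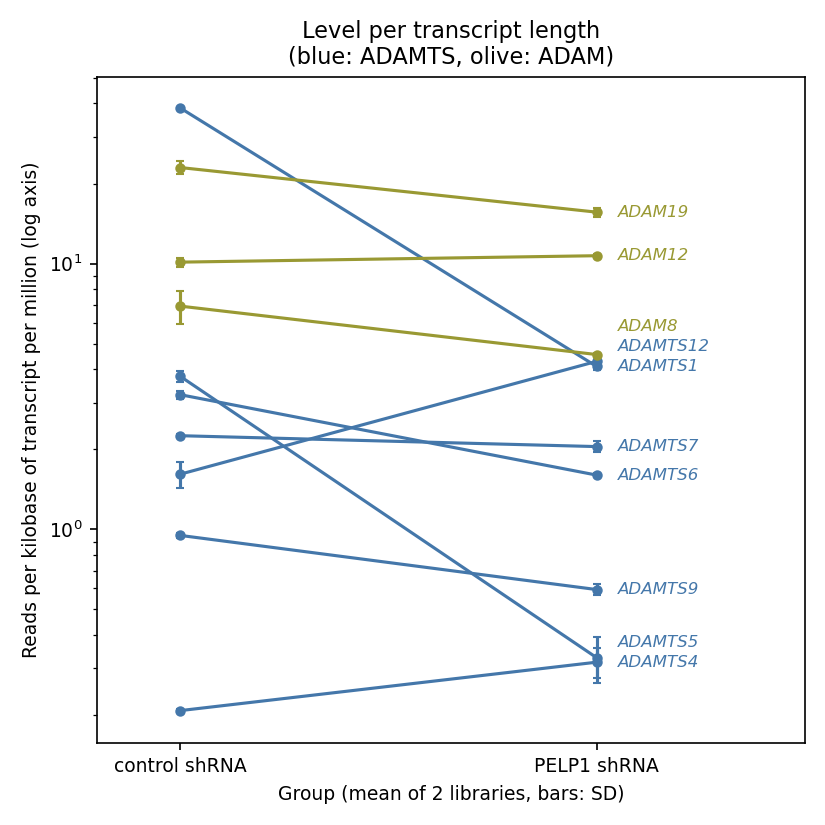
Level per transcript length (RPKM, log axis) of the 10 genes in the control and PELP1 shRNA groups; points are means of 2 libraries and bars are SD. ADAMTS1 goes from place 1 to place 5, ADAMTS5 falls to the level of ADAMTS4, and ADAMTS12 crosses upward to meet ADAMTS1.

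The make-up of the RNA of the 7 ADAMTS genes among the 10 therefore shifted. Other ADAMTS genes are not in these shares, such as ADAMTS15, at 38.4 CPM in the control and 26.1 CPM in the knockdown libraries. The summed ADAMTS level of the 7 genes was 50.7 and 50.1 RPKM in the control libraries and 13.4 and 13.1 RPKM in the knockdown libraries, while the 3 ADAM genes summed to 38.1 and 41.8 against 31.4 and 30.3 RPKM. The 7 ADAMTS genes held 55.8% of the total of all 10 in the control (mean of 57.1% and 54.5%) and 30.1% after knockdown (29.9% and 30.3%). Within the 7, ADAMTS1 made up 76.2% and 76.3% with the control shRNA and 29.8% and 32% with the PELP1 shRNA. ADAMTS12 made up 2.92% and 3.48% with the control shRNA and 33.4% and 31.2% with the PELP1 shRNA. ADAMTS5 stood 2.62-fold and 2.09-fold above ADAMTS12 per length in the control libraries, and ADAMTS12 stood 11.9-fold and 14.5-fold above ADAMTS5 in the knockdown libraries.

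Relatives outside the 10 genes were counted from lists. These lists, and those of substrates and regulators below, were chosen with earlier results of these data known. Their counts beside those of all genes are therefore description, not a test. Of 12 other ADAMTS protease genes, 10 were tested: 5 fell, 1 (ADAMTS13) rose and 4 missed the threshold (median log2 fold change −0.39). Over all genes 29.5% fell and 28.6% rose. Past a 1.5-fold change, 4 of the 10 were lower and 0 higher, where 4.90% and 4.74% of all genes passed. ADAMTS16 and ADAMTS18 lost this pass with DESeq2 tested against 1.5-fold (adjusted p = 0.165 and 0.386). ADAMTS16 also lost it with an assumed biological variation of 20% (edgeR glmTreat adjusted p = 0.235). The call of ADAMTS13, named after its values were seen, was lost without control shRNA replicate 1, with DESeq2 and with an assumed biological variation of 20%. ADAMTS10, the paralog of ADAMTS6 that acts on fibrillin, fell from 5.004 and 4.93 to 1.59 and 1.34 CPM (log2 fold change −1.75 ± 0.19, SE). ADAMTS16 fell by 1.09 from 10 CPM, and ADAMTS18 fell by 1.69 from 1.81 CPM, on the log2 scale. ADAMTS2, a procollagen N-propeptidase named after its values were seen, held 31 and 35 counts in the control and 5 and 1 in the knockdown libraries. Its log2 fold change of −3.64 ± 0.49 (SE), from a low level of 1.34 CPM, ranked 37th from the lowest, ahead of ADAMTS5. ADAMTS15, a further proteoglycanase also named after its values were seen, fell by 0.56 on the log2 scale. Of 7 genes of ADAMTS-like proteins, which have the repeats but no protease domain, 6 were tested, and 3 rose, 1 fell and 2 did not pass (median 0.46). THSD4, named after its values were seen, rose from 30.3 and 29.1 to 57.9 and 56.7 CPM (0.95 ± 0.06, SE; edgeR adjusted p = 6.68e-21). The gene that fell was ADAMTSL1, from 49.8 and 51.7 to 17.8 and 19.4 CPM (−1.45 ± 0.07, SE; edgeR adjusted p = 1.45e-27).

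Of 18 other ADAM genes 9 had too few counts to test. Of the rest 3 rose, 3 fell and 3 did not pass (median −0.06), where 28.6% of all genes rose and 29.5% fell. ADAM21, a testis-associated member, rose 3.99-fold but only to 1.72 CPM. The broadly expressed sheddases, named after their values were seen, differed among themselves. ADAM9 fell from 300 to 153.4 CPM and ADAM15 from 135.1 to 84.8 CPM, and ADAM17, the TNF-converting enzyme, fell by 0.25 on the log2 scale. ADAM10, the main Notch and cadherin sheddase, stood at 173.4 and 165.7 CPM (adjusted p = 0.172).

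**Figure D3:**
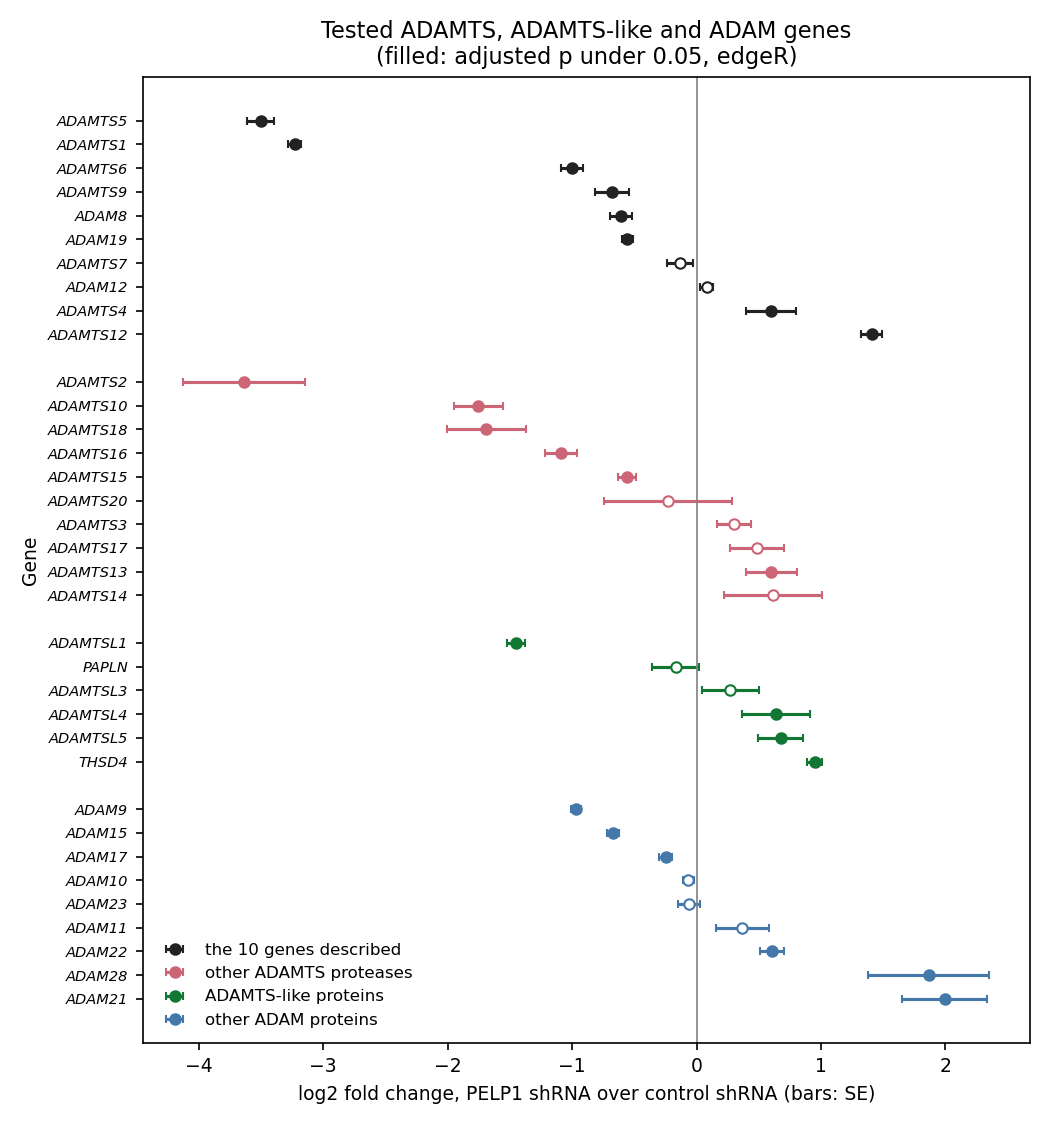
Log2 fold change (x axis, PELP1 shRNA over control shRNA) with SE for the tested genes of the 10 described and of 3 lists of relatives; filled points passed an edgeR adjusted p of 0.05. ADAMTS5 and ADAMTS1, at −3.50 and −3.23, stand well to the left of the other 8 genes described, and ADAMTS12 is the rightmost of them at 1.41.

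Known matrix substrates went both ways. Of 20 genes, 17 were tested: 10 fell, 6 rose and 1 missed the threshold (median log2 fold change −0.51), where 29.5% of all genes fell and 28.6% rose. With an assumed biological variation of 20%, 6 were lower and 2 higher, against 640 lower and 685 higher of all 14972 genes. Past a 1.5-fold change in the main fit, 6 were lower and 1 higher, where 4.90% and 4.74% of all genes passed. BGN, the small proteoglycan biglycan, fell from 44.9 and 48.3 to 4.47 and 3.16 CPM, COL1A2 fell 11.3-fold and COL3A1 7.27-fold, and the basement membrane gene NID2 fell 2.13-fold. COL1A1, named after its values were seen, rose from 3282 to 3724 CPM (log2 fold change 0.18 ± 0.04, SE; edgeR adjusted p = 2.19e-05). THBS2, a matricellular inhibitor of angiogenesis, rose 2.39-fold, from 102.6 and 110.6 to 258.1 and 250.9 CPM. VWF, the substrate of ADAMTS13, rose to 1.55 CPM, and that call was lost without control shRNA replicate 2 (adjusted p = 0.0561), without PELP1 shRNA replicate 1 (0.0569), with DESeq2 (0.0582) and with an assumed biological variation of 20% (0.0595). Among the proteoglycans that the ADAMTS proteoglycanases cut, named after their values were seen, the versican gene VCAN fell from 181.7 to 87.6 CPM, and BCAN stood at 1.65 and 1.81 CPM. The aggrecan gene ACAN, at 0.06 and 0.07 CPM, and NCAN, at 0.52 and 0.31 CPM, had too few counts to test.

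Of 20 genes of other proteins cleaved by ADAM proteases, 17 were tested. Of these 9 fell, 4 rose and 4 missed the threshold (median −0.37), where 29.5% of all genes fell and 28.6% rose. Past a 1.5-fold change, 5 were lower and 2 higher, where 4.90% and 4.74% of all genes passed. NRG1, the neuregulin that ADAM19 sheds, fell from 96.7 and 89.9 to 16.6 and 15.8 CPM, a log2 fold change of −2.52 ± 0.06 (SE; edgeR adjusted p = 1.56e-42). HBEGF, the EGF receptor ligand that ADAM12 can release, fell from 119.3 and 119.3 to 50.5 and 53.4 CPM, and the stem cell factor gene KITLG fell 2.36-fold. The binding-protein genes cut by ADAM12 went opposite ways: IGFBP3 fell 2.59-fold and IGFBP5 rose 3.06-fold, to 289.6 and 282.4 CPM. TNF rose 2.58-fold to 4.42 CPM.

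Genes that restrain, activate or position these proteases moved in both directions. Of 22 genes all were tested: 9 fell, 8 rose and 5 missed the threshold (median −0.06; 29.5% of all genes fell and 28.6% rose), with 1 lower and 1 higher past a 1.5-fold change. PCSK6, a furin-like convertase, rose 2.02-fold, from 14.8 and 16.7 to 32.8 and 31.1 CPM. The others were named after their values were seen. FURIN, a convertase that removes the prodomains of many of these proteases, fell from 275.7 to 197.5 CPM. TIMP3, the inhibitor with the broadest action on ADAM and ADAMTS proteases, rose from 125.7 to 199.6 CPM, and TIMP1 fell by 0.50 on the log2 scale. LRP1, the receptor that clears ADAMTS5 from the matrix, fell from 78.4 to 60.1 CPM, and SDC4 rose by 0.43 on the log2 scale.

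**Figure D4:**
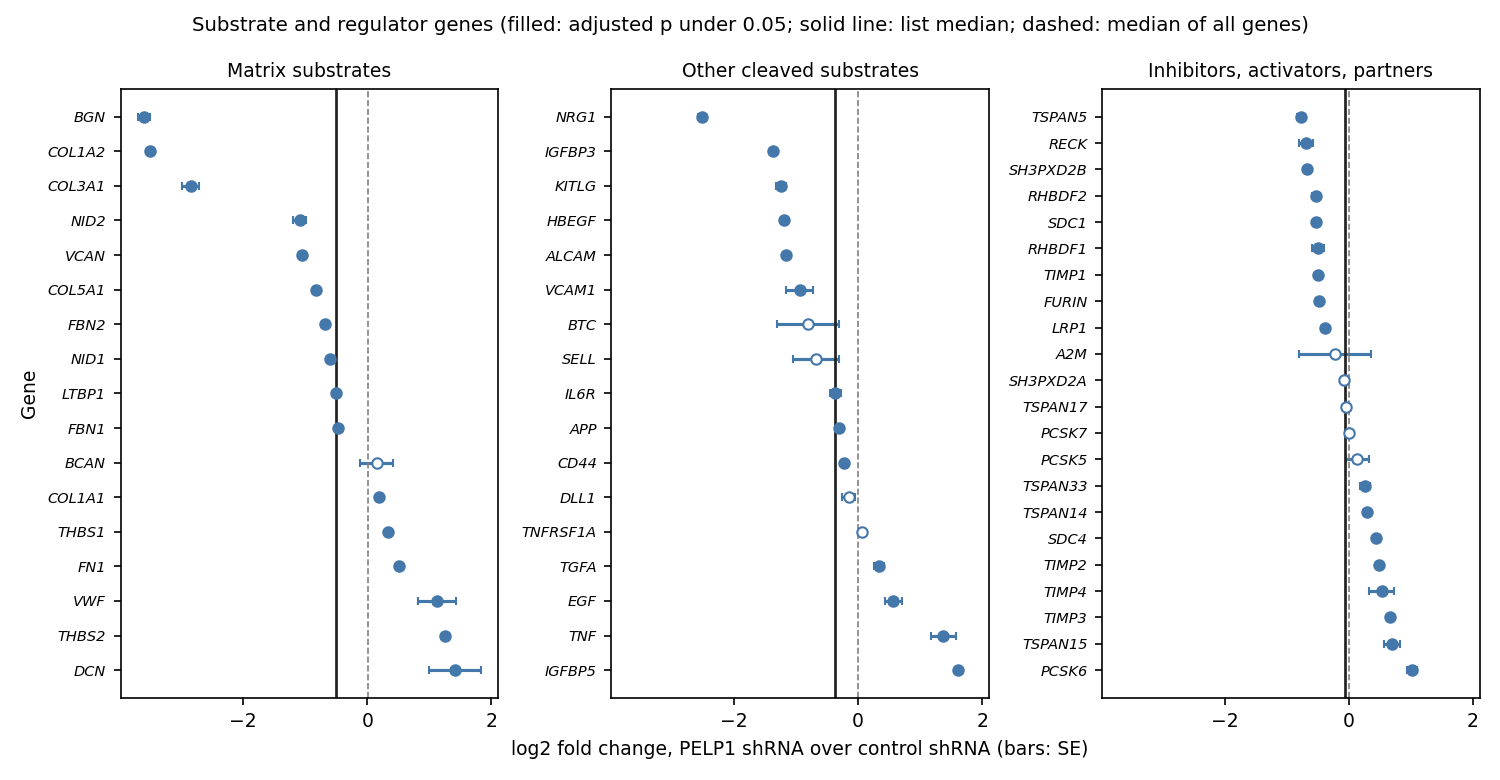
Log2 fold change (x axis) with SE for tested substrate and regulator genes in 3 lists; filled points passed an edgeR adjusted p of 0.05, the solid line is the list's median and the dashed line the median of all genes. The substrate lists lie to the left at medians of −0.51 and −0.37, and the regulators centre near 0, at −0.06.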

How the data were processed

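RNA of 4 Daoy libraries was sequenced as 50-base single-end reads. The submitters' processing notes name TopHat2 2.0.8b, HTSeq and the build hg19. For HTSeq, the version, strand setting and gene models were not given in the sources used here. The deposited values are raw read counts per gene symbol. The 5 rows that name no gene entered neither library sizes nor tests. Alignments that were not unique held 29.4% to 30.8% of each file's total, reads in no gene 8.83% to 9.08% and ambiguous reads 0.58% to 0.60%.

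Counts were tested with edgeR 4.0.16 in R 4.3.3 (TMM scaling, filterByExpr, robust quasi-likelihood F test with the shRNA group as the only term, two-sided, Benjamini-Hochberg adjustment over 14972 genes, threshold 0.05), and against a 1.5-fold change with glmTreat. Each SE is the log2 fold change over the square root of F. Alternatives were DESeq2 1.42.0, 3 other scalings, 2 filters, leaving out each library, the replicate block, and an assumed biological variation of 10% or 20%. The common biological variation that edgeR fitted to these libraries was 2.99%. Chi-square per degree of freedom between replicates was 2.47 and 2.37, against 56.1 to 62 between groups, so no library was a second deposit of another. This does not show separate cultures. Coordinates, exons and lengths came from GENCODE v44 lifted to GRCh37. Members and lists were chosen with earlier results of these data known. Beyond the 10 members, each list's genes with an adjusted p under 0.05, a mean of at least 1 CPM and a 2-fold change were named, at most 4 in each direction.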

Additional observations from a re-analysis of the deposited data

How the results depend on the processing

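The choice of alternative changed no direction among the 10 genes. ADAMTS1, ADAMTS5, ADAMTS6 and ADAMTS12 kept an adjusted p under 0.05 in all 13 alternatives, with ranges of −3.26 to −3.14, −3.73 to −3.32, −1.04 to −0.91 and 1.296 to 1.53. With an assumed biological variation of 20%, ADAMTS9 (−0.68, adjusted p = 0.201), ADAM8 (−0.61, adjusted p = 0.25), ADAM19 (−0.56, adjusted p = 0.298) and ADAMTS4 (0.60) missed the threshold, leaving 3 members lower and 1 higher, and 2 lower past 1.5-fold without ADAMTS6 (adjusted p = 0.333). ADAMTS4 also missed it with DESeq2 (0.60), leaving 1 higher, and could not be tested with the filter of 5 CPM (1 higher). Leaving out single libraries gave ADAMTS4 values of 0.47 to 0.73 and 1 to 2 members higher. ADAM12 was called at 0.13 with upper-quartile factors and 0.17 with library size alone. The share of higher calls over all genes was 49.1%, and 63.2% with library size alone. Genes lower and higher over the transcriptome were 2176 and 2187 with an assumed variation of 10%, and 640 and 685 with 20%. Past 1.5-fold there were 276 lower and 285 higher with 20%, 400 lower and 284 higher with DESeq2, and 431 higher with the filter of 5 CPM.

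Of the other ADAMTS proteases, 2 were lower with the filter of 5 CPM. With upper-quartile factors 3 were higher, and 3 with library size alone, 2 without a low-count filter, 0 with DESeq2 or a variation of 20%, and 0 to 1 when each library was left out, ADAMTS13 being lost without control shRNA replicate 1. With the filter of 5 CPM, 1 ADAMTS-like gene and 1 other ADAM gene were higher. With a variation of 20%, 1 ADAMTS-like gene was higher, 1 other ADAM gene lower, 6 matrix substrates lower and 2 higher, 5 other substrates lower and 2 higher, and 0 regulators lower and 1 higher. With 10%, 5 regulators were higher. The cause was not tested, beyond the fewer genes that the filter leaves.

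Replicate numbers are shared between groups, but nothing in the labels pairs them. Deviations of same-numbered libraries correlated at 0.01. With the replicate block 6 members were lower and 2 higher, 4151 and 4010 over all genes. Genes below about 1 CPM, such as ACAN and 9 other ADAM genes, had few or no counts at this depth. Whether depth or absent expression accounts for this was not tested.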
